A study of Mus musculus with 6 samples.

Results

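The kinesin motor genes were followed through RNA-seq of the mouse hippocampus, as gene sums and as single isoforms. Members were taken by name: an isoform's gene symbol is its transcript name without the final number, and symbols of the form Kif followed by a number, with or without a letter from a to c, or Kifc followed by a number, were kept. This gave 41 kinesin genes of 53354 gene symbols, and 241 isoforms of 133944. The rule uses names and no measured value, but it was chosen with earlier results of these data known.

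Hippocampi of 6 mice, each 3 months old, were sequenced: 3 N-cre mice and 3 N-cre;Fox1 mice. N-cre is the Nes-cre transgene, in which the Nestin promoter drives Cre recombinase in neural progenitors, which can give rise to neurons, astrocytes and oligodendrocytes. In the hippocampus the study reported Nes-cre reporter activity in granule and pyramidal cells, and Rbfox1 protein that was not found together with the glial marker GFAP. N-cre;Fox1 mice also carry 1 conditional allele placed at the Gt(ROSA)26Sor locus, in which Cre removes a floxed stop cassette and lets the CAG promoter drive an Rbfox1 cDNA. Both genotypes carry Nes-cre, mice without it were not part of the comparison, and the conditional allele was made in 129/sv embryonic stem cells and backcrossed to C57BL/6J. The comparison asks which transcripts differ when the splicing factor Rbfox1 is expressed from this allele.

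Kinesins are motors that use ATP to move along microtubules or to change the ends of microtubules. In neurons the plus-end directed families kinesin-1, kinesin-2 and kinesin-3 carry vesicles, mitochondria and RNA granules from the cell body into axons and dendrites, and kinesin-14 motors walk toward the minus end. Other members build the mitotic spindle, separate chromosomes or serve cilia, and they act mainly in dividing or ciliated cells. Rbfox proteins bind the element UGCAUG, in introns to set the use of nearby exons and in 3′ untranslated regions to change transcript level.

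The libraries held 40463587 to 62141336 expected counts, of which kinesins took 0.737% to 0.765%. The summed Rbfox1 count did not separate the genotypes, at 14642 ± 422 normalized counts in N-cre and 14759 ± 1209 in N-cre;Fox1 mice (SD, n = 3 each), so this sum is no check of the labels. The isoform Rbfox1-202 was higher in all 3 N-cre;Fox1 mice (2142, 2326 and 2402 against 1733, 1758 and 1860), with an unadjusted p of 0.000691 and an adjusted p of 0.623 by edgeR (quasi-likelihood test, Benjamini-Hochberg adjustment). All 8 neuronal and all 8 hippocampal neuron markers were detected and tested. Choroid plexus transcripts set 2 mice apart: Ttr, the transthyretin gene, reached 109727 normalized counts in N-cre replicate 3 and 248995 in N-cre;Fox1 replicate 2, and at most 664 in the other 4 mice. Xist was high in replicate 1 of each genotype and at 17.1 to 21.8 counts in the other 4 mice.

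The hippocampal kinesin transcripts were carried by a small number of transport motors. The 6 genes with the most counts (Kif5a, Kif1a, Kif5c, Kif1b, Kifc2 and Kif3c) held 83.7% of all kinesin counts. Per transcript length, as TPM (counts divided by transcript length and scaled to an equal sum in every library), kinesin-1 made up 41.2% of the kinesin level, kinesin-3 27.7%, kinesin-14 15.1%, kinesin-2 9.85%, kinesin-4 3.47% and kinesin-13 1.54%. Kinesins of cilia and others made up 0.717%, and the 12 mitotic kinesins together 0.406%. In tissue as mixed as a hippocampus, fewer cells of a type and less RNA per cell cannot be told apart.

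Kif5a, a neuronal heavy chain of conventional kinesin, had the highest level, at 938 ± 27.3 TPM (SD over 6 mice). It was followed by Kif1a, the motor of synaptic vesicle precursors, at 483 ± 11.5, and by Kifc2, a neuronal minus-end motor, at 404 ± 17.7. These 3 levels did not overlap in any mouse. They are sums over all isoforms of a gene, and with the most abundant isoform alone Kif1a was at 350 and Kifc2 at 404 TPM. Kif5c, another neuronal heavy chain, at 249.9 ± 9.31, and Kif1b, a carrier of mitochondria and synaptic vesicle precursors, at 247 ± 6.68, could not be ordered, since their ranges overlapped and Kif5c was the higher one in 5 of 6 mice. The kinesin-2 subunits came next, with Kif3c at 131 ± 4.23 TPM and its partner Kif3a at 107 ± 3.26, again without overlap. With the most abundant isoform alone Kif3c was at 54.1 and Kif3a at 73.3 TPM, and Kif5c at 247 and Kif1b at 116. The order within these pairs thus depends on how isoforms enter the level, which the SD over mice does not show.

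Kif1c, Kif21a and Kif5b stood together at 71.4 ± 4.43, 68.1 ± 2.00 and 67.9 ± 5.24 TPM, and their order changed from mouse to mouse. Below them Kifc3 (54.8), Kif2a (46.3), Kif3b (39.7) and Kif21b (33.4) were each apart from their neighbours in all 6 mice. This order too holds for sums over isoforms. With the most abundant isoform alone Kifc3, Kif2a and Kif21b were at 29.9, 22.6 and 25.1 TPM. Kif17, Kif13b and Kif13a had means of 22.3, 20.4 and 17.1 TPM, and Kif13b overlapped with each of the other two, which did not overlap with each other. Kif13b exceeded Kif13a in 6 of 6 mice. A gap followed, and the remaining genes were at 6.01 TPM (Kif16b) or lower.

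Among the mitotic kinesins, Kif22, a chromosome-arm motor, was the highest at 5.23 TPM, but 73.1% of its counts lay on Kif22-204, an isoform annotated as a retained intron. Kifc1, a spindle motor with a near-identical paralog (Kifc5b) with which reads may be shared, was at 1.83 TPM. The other 10 (Kif15, Kif11, Kif23, Kif18a, Kif20a, Kif4, Kif20b, Kif18b, Kif2c and Kif14) were below 1 TPM, and in normalized counts none of them had a mean above 98.4 in either genotype. Kif2b, a kinetochore depolymerase, had 0 counts in all 6 mice, and Kif12 and Kif28, with at most 6 and 12.01 expected counts in a mouse, had too few for a test.

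**Figure D1:**
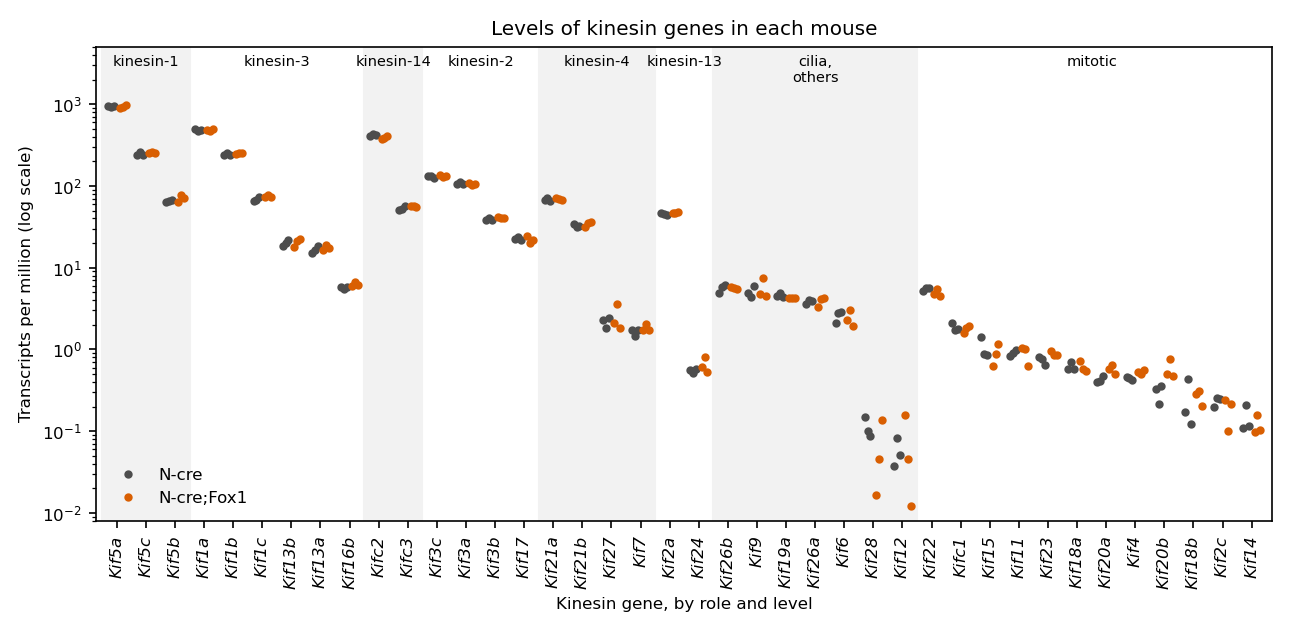
Level of 40 kinesin genes in each mouse, in TPM on a log axis, ordered by role and mean level; each point is 1 mouse (grey N-cre, orange N-cre;Fox1), and Kif2b, at 0 in all mice, is not drawn. Kif5a stands highest at 938 TPM, and the mitotic kinesins lie at 5.23 TPM or lower.

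The sums of kinesin genes differed little between the genotypes. Of 38 genes tested, 0 had an adjusted p under 0.05 by edgeR (quasi-likelihood test, Benjamini-Hochberg adjustment), where 0.0264% of all 18924 genes did, and the lowest adjusted p of a kinesin was 0.782. At an unadjusted p under 0.05 there were 2, or 5.26%, against 6.19% of all genes. In 25 genes the fitted log2 fold change (N-cre;Fox1 over N-cre) was above 0 and in 13 below, with a median of 0.015 against -2.6e-05 over all genes. In 18 genes with a mean above 1000 normalized counts the log2 fold change was at most 0.12 in either direction, with standard errors (SE) between 0.033 and 0.088.

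Kifc2 (chromosome 15, 76659858 to 76668196, mm10) had the lowest unadjusted p. Its normalized counts were 29626, 30671 and 30096 in N-cre and 27481, 27605 and 29029 in N-cre;Fox1 mice. All 3 N-cre;Fox1 mice lay below all 3 N-cre mice, at a log2 fold change of -0.10 ± 0.04 (SE), with an unadjusted p of 0.0279 and an adjusted p of 0.782 by edgeR's quasi-likelihood test. The unadjusted p was between 0.0512 and 0.102 without any 1 of the N-cre mice or N-cre;Fox1 replicate 1. Kifc2 has 1 annotated isoform, so no division of reads between isoforms enters this value, and 4.15% of its exon bases overlap Cyhr1 on the opposite strand.

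Kif1c (chromosome 11, 70700548 to 70731964), a widely expressed vesicle motor, had 7572, 7823 and 8647 normalized counts in N-cre and 8571, 8926 and 8570 in N-cre;Fox1 mice. The groups overlapped through N-cre replicate 3, which was above 2 of the 3 N-cre;Fox1 mice. Its fitted log2 fold change was 0.12 ± 0.05 (SE), with an unadjusted p of 0.0368 and an adjusted p of 0.799 by edgeR's quasi-likelihood test. Without the 2 mice with choroid plexus transcripts, an alternative chosen after the data were seen, it was 0.16 ± 0.04 with an unadjusted p of 0.00232. With single mice left out the unadjusted p ran from 0.00225 without N-cre replicate 3 to 0.130 without N-cre replicate 1, and it was also over 0.05 without N-cre replicate 2 and N-cre;Fox1 replicates 2 and 3.

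Groups did not overlap in 4 of the 38 kinesin genes, or 10.5%, close to the 12.1% of all genes tested. Beside Kifc2 these were Kifc3, Kif7 and Kif20a, each higher in N-cre;Fox1 mice. Kifc3, a minus-end motor known from epithelial cell junctions, had 3233, 3184 and 3297 normalized counts in N-cre and 3487, 3360 and 3303 in N-cre;Fox1 mice, a log2 fold change of 0.06 ± 0.03 (SE, unadjusted p = 0.0979 and adjusted p = 0.844 by edgeR's quasi-likelihood test). The nearest mice of the genotypes, at 3297 and 3303, almost met. Kif7, a regulator of Hedgehog signalling at the primary cilium, had 172, 151 and 173 against 174, 204 and 175 counts (log2 fold change 0.16 ± 0.13, SE). Kif20a, a motor of cytokinesis, had 27.9, 28.8 and 33.0 against 41.2, 44.5 and 35.2 counts (0.42 ± 0.23, SE). Its counts were low, and 29.3% of its exon bases overlap Cdc23, which had a mean of 3068 counts on the opposite strand. The library kit keeps the strand of a transcript, but the strand setting of the quantification is not given in the sources used here.

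Among the main axonal motors, Kif5a had 135477, 129561 and 133184 normalized counts in N-cre and 127159, 127979 and 136503 in N-cre;Fox1 mice. Kif1a had 82683, 78107 and 81214 against 80158, 77385 and 82394 counts. The genotypes overlapped in both genes, and the log2 fold changes were -0.02 ± 0.04 and -0.01 ± 0.04 (SE). Kif5c had 36986, 39850 and 36085 against 38158, 38697 and 38177 counts (0.03 ± 0.05, SE), and Kif1b had 34926, 39939 and 35326 against 37347, 37792 and 36315 (0.02 ± 0.05, SE). In both genes the N-cre;Fox1 mice lay inside the range of the N-cre mice. Kif5b, the heavy chain found in most cell types, was at 0.07 ± 0.06 (SE), with means of 8578 ± 232 and 9029 ± 732 counts (SD, n = 3 each).

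The kinesin-2 family, which forms Kif3a-Kif3b and Kif3a-Kif3c motors and the Kif17 homodimer, differed as little. Kif3c had 15404, 15090 and 14604 counts in N-cre and 15705, 14452 and 15389 in N-cre;Fox1 mice, and Kif3a had 6762, 7117 and 6700 against 6988, 6593 and 6649. The genotypes overlapped in both, at log2 fold changes of 0.01 ± 0.04 and -0.02 ± 0.04 (SE). Kif3b stood at 0.06 ± 0.04 and Kif17, a dendritic motor, at -0.04 ± 0.07.

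In the endosomal kinesin-3 motors the log2 fold changes were 0.07 ± 0.06 (SE) in Kif13a, 0.01 ± 0.09 in Kif13b and 0.07 ± 0.08 in Kif16b. Kif21a and Kif21b, kinesin-4 motors that restrain microtubule growth, had changes of 0.01 ± 0.04 and 0.05 ± 0.05 (SE). Kif21a had 9319, 9598 and 8875 counts in N-cre and 9646, 9236 and 9144 in N-cre;Fox1 mice, and Kif21b had 6921, 6462 and 6623 against 6380, 6986 and 7292. The genotypes overlapped in both genes. Kif2a, a microtubule depolymerase that limits axon branches, had 4305, 4242 and 4098 against 4198, 4229 and 4313 counts, also with overlap (0.01 ± 0.03, SE). Kif24, a centriolar relative of it, had 39.9, 44.5 and 33.6 against 47.7, 58.5 and 31.9 counts (0.22 ± 0.26, SE), with N-cre;Fox1 replicate 3 below every N-cre mouse.

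The mitotic kinesins split evenly, with 6 of 12 above 0 and 6 below, and their median log2 fold change was 0.01. Kif22 had 225, 197 and 203 counts in N-cre and 210, 215 and 221 in N-cre;Fox1 mice (0.05 ± 0.11, SE), and Kifc1 had 93.0, 84.2 and 87.3 against 78.6, 78.3 and 92.1 (-0.09 ± 0.16, SE). The genotypes overlapped in both. The mean over the 6 mice was 97.3 counts for Kif11, 51.5 for the chromokinesin Kif4, 47.1 for Kif18a, which aligns chromosomes, 35.6 for the cytokinesis motor Kif23 and 27.7 for the spindle motor Kif15. It was 23.5 for Kif20b, 21.5 for Kif14, 18.9 for Kif18b and 12.2 for the depolymerase Kif2c. At these counts the errors were wide, with SE from 0.20 for Kif11, the spindle pole motor, to 0.45 for Kif18b. Apart from Kif20a, the fitted values lay between -0.28 ± 0.44 (SE) in Kif2c and 0.23 ± 0.29 in Kif20b, so that differences well above those of the transport motors would not have been detectable here.

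**Figure D2:**
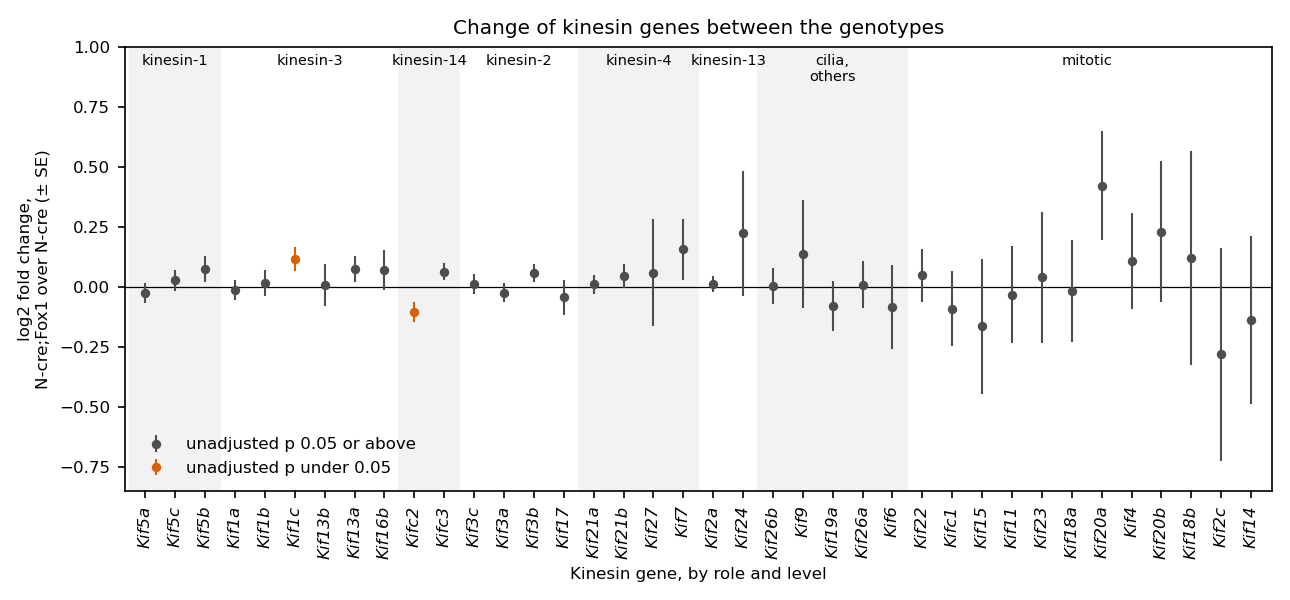
Fitted log2 fold change (N-cre;Fox1 over N-cre) of 38 kinesin genes with bars of ± 1 SE, ordered by role and level; orange points are the 2 genes with an unadjusted p under 0.05. The highly expressed transport motors lie within 0.12 of 0, and the bars of the mitotic kinesins are several times longer.

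Kinesins of motile cilia were highest in the mice with choroid plexus transcripts, in either genotype. Kif9, a motor of motile cilia, had 288, 273 and 367 normalized counts in N-cre and 295, 459 and 264 in N-cre;Fox1 mice. Kif27, a kinesin of motile cilia, had 178, 174 and 222 against 167, 275 and 155 counts, and Kif6 had 149, 187 and 194 against 149, 208 and 141. All 3 were highest in N-cre;Fox1 replicate 2 and, within N-cre, in replicate 3. The same mice were highest for Foxj1, the regulator of motile cilia (481, 546 and 795 against 595, 1119 and 499 counts). The summed level of the 9 ependymal and cilia markers was 84.8 and 94.5 TPM in these 2 mice against 55.5 to 64.8 in the other 4. Not all of the 9 followed this order. Ccdc153 had 281 counts in N-cre replicate 2 and 268 in N-cre;Fox1 replicate 2, and Spag17 had 44.2 in N-cre replicate 2 and 38.8 in N-cre replicate 3. The summed level of the 7 choroid plexus markers was 4272 and 9784 TPM against 23.9 to 39.5. Without these 2 mice the log2 fold change of Kif9 was -0.0024 ± 0.12 (SE) instead of 0.14 ± 0.23. The part of ventricular tissue in Kif9 or in any other kinesin was not tested. Kif19a, which shortens cilia by depolymerizing microtubules, varied less, at 213 to 241 counts over the 6 mice. Kif26b, an atypical kinesin without motor activity, had 1451, 1708 and 1813 against 1715, 1625 and 1639 counts (0.0040 ± 0.08, SE), with the highest value in N-cre replicate 3 and the lowest value of its genotype in N-cre;Fox1 replicate 2. Kif26a, its relative, had means of 595 ± 32.7 and 598 ± 74.8 counts (SD, n = 3 each).

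Kif13b, a kinesin-3 motor that binds the scaffold protein Dlg, varied more within the genotypes than between them. It had 3256, 3589 and 3916 normalized counts in N-cre and 3282, 3622 and 3913 in N-cre;Fox1 mice, and was highest in replicate 3 of each. The myelin gene Mag had 8777, 9017 and 10158 against 8215, 9103 and 10445 counts. The summed level of the 7 oligodendrocyte markers ran from 4663 to 5757 TPM and was, like Mag, highest in these same 2 mice. Whether oligodendrocyte content set the level of Kif13b was not tested.

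**Figure D3:**
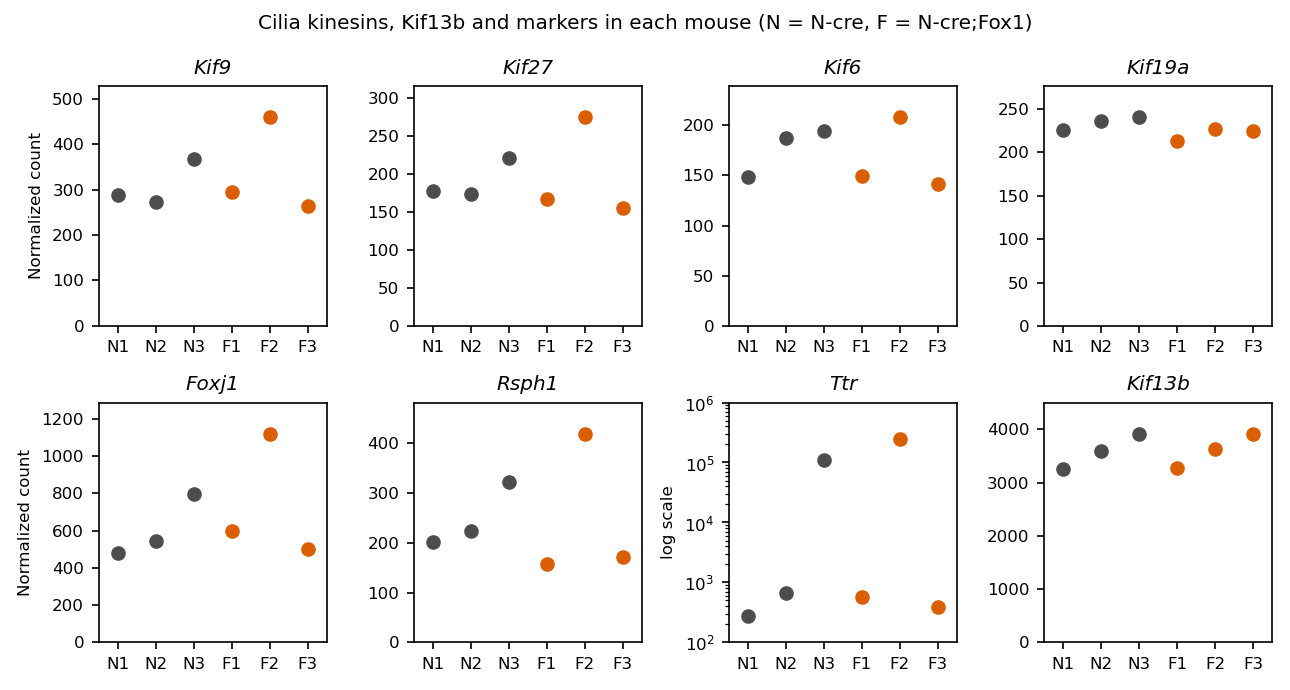
Normalized counts of 5 kinesins, the ciliary markers Foxj1 and Rsph1 and the choroid plexus marker Ttr in each mouse (grey N-cre, orange N-cre;Fox1); all axes start at 0 except that of Ttr, which is a log axis. Kif9, Kif27 and Kif6 are highest in N-cre;Fox1 replicate 2, where Ttr reached 248995 counts, and Kif13b ranges from 3256 to 3916.

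Genes that work with kinesins also gave 0 adjusted calls. Of 34 tested kinesin adaptors and light chains, 14 had a log2 fold change above 0 and 20 below, with a median of -0.0030 against -2.6e-05 over all genes. The lowest adjusted p was 0.758 by edgeR's quasi-likelihood test, and at an unadjusted p under 0.05 there were 2 of 34, close to the 6.19% of all genes. The same 2 were the ones without overlap, against 12.1% of all genes. Trak2, which links kinesin-1 to mitochondria, had 10710, 10790 and 10696 counts in N-cre and 11280, 11537 and 11505 in N-cre;Fox1 mice (0.09 ± 0.03, SE, adjusted p = 0.758 by edgeR's quasi-likelihood test). Lin7a, a scaffold protein of the complex that ties Kif17 to its cargo, had 472, 452 and 476 against 513, 526 and 545 (0.18 ± 0.08, SE, adjusted p = 0.799 by edgeR).

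Dynein and dynactin, the machinery of retrograde transport, held 32 tested genes, 16 above 0 and 16 below, with a median of 0.0037. Of these, 0 passed the adjusted threshold and 1, Bicdl1, had an unadjusted p under 0.05 (0.11 ± 0.05, SE), against 6.19% of all genes, and 4 of 32 did not overlap between the genotypes, against 12.1%. Their summed level was between 4599 and 4707 TPM in N-cre and between 4623 and 4777 in the others. The 22 cell division genes other than kinesins had a median of 0.09, with 13 above 0 and 9 below, and 0 passed the adjusted threshold. An unadjusted p under 0.05 by edgeR was found in 2 of 22, against 6.19% of all genes, and 4 of 22 did not overlap, against 12.1%. Top2a, the topoisomerase of dividing cells, had 61.1, 77.3 and 68.5 counts in N-cre and 106, 92.7 and 118 in N-cre;Fox1 mice (0.62 ± 0.17, SE, adjusted p = 0.651 by edgeR), and Incenp, of the chromosomal passenger complex, 655, 614 and 652 against 591, 550 and 544 (-0.19 ± 0.07, SE, adjusted p = 0.782 by edgeR). The genotypes did not overlap in either gene, and the directions were opposite.

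Isoforms were then compared, since Rbfox1 acts on splicing. Of the 241 kinesin isoforms 101 were tested, 79 of them protein coding, 14 retained introns, 4 targets of nonsense-mediated decay and 4 processed transcripts, and 46 had 0 counts in all mice. Isoform values rest on how RSEM divided the reads that isoforms share. None (0) passed an adjusted p of 0.05 by edgeR (quasi-likelihood test, Benjamini-Hochberg adjustment), as for all 50556 isoforms tested (0%), and the lowest adjusted p was 0.762. At an unadjusted p under 0.05 there were 10, or 9.90%, against 4.78% of all isoforms, 8 of them higher with the Rbfox1 allele and 2 lower. Groups did not overlap in 13, or 12.9%, against 11.5% of all isoforms. The median log2 fold change was 0.05 against 0.0040 over all isoforms.

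Most transport motors were each carried by 1 main isoform. Kif5a-201 held 99.4% of the Kif5a counts, Kif5c-201 99.9%, Kif1a-204 80.0% and Kif3a-203 76.2%. Kif1b was split between Kif1b-203, with 71.6%, and Kif1b-210, a retained intron with 26.7% of the counts, and Kif3c between Kif3c-201 (54.4%) and Kif3c-205 (44.1%). Of the other genes given by mouse above, the main isoform held 63.4% of the counts in Kif2a (Kif2a-201), 66.2% in Kifc3 (Kifc3-201), 74.8% in Kif1c (Kif1c-202), 82.5% in Kif20a (Kif20a-202), 83.8% in Kif7 (Kif7-203) and 96.9% in Kif26b (Kif26b-202). It held 53.0% in Kif9 (Kif9-201), 71.3% in Kif24 (Kif24-202) and 72.9% in Kifc1 (Kifc1-204). The share of Kif20a-202 was uneven between mice. Its difference (N-cre;Fox1 minus N-cre) was 31.6 percentage points, and between -1.75 and 48.2 with 1 mouse left out. Kif17 was spread over 4 isoforms at 39.4%, 30.4%, 18.5% and 11.7%. In Kif21b the main isoform, Kif21b-204 with 76.7%, is annotated as a target of nonsense-mediated decay, and its share was 77.1 ± 3.66 in N-cre and 76.3 ± 1.48% in N-cre;Fox1 mice (SD, n = 3 each). In Kif5a, Kif5c, Kif1a, Kif3a, Kif1b, Kif3c, Kif17 and Kif21b the unadjusted p of the main isoform was 0.461 or higher by edgeR's quasi-likelihood test.

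Kif21a (chromosome 15, 90933276 to 91049948, minus strand), in which mutations cause a disorder of eye muscle innervation, held the isoform with the lowest unadjusted p. Its main isoform Kif21a-204 had 4811, 4999 and 4893 normalized counts in N-cre and 5384, 5501 and 5485 in N-cre;Fox1 mice, higher in all 3. Its log2 fold change was 0.16 ± 0.03 (SE), with an unadjusted p of 0.00231 and an adjusted p of 0.762 by edgeR's quasi-likelihood test. Leaving out any 1 mouse gave values from 0.14 to 0.17, with unadjusted p between 0.00507 and 0.0121. DESeq2's Wald test gave an adjusted p under 0.05 for this isoform and for no other kinesin isoform. Its share of the Kif21a counts was 51.5%, 52.0% and 55.2% in N-cre and 55.8%, 59.5% and 60.1% in N-cre;Fox1 mice, a difference without overlap and with an exact two-sided permutation p of 0.1, the smallest that 3 mice against 3 allow.

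Kif21a-205 went the other way. It had 1345, 1439 and 1070 counts in N-cre and 1129, 797 and 916 in N-cre;Fox1 mice, with an overlap through N-cre replicate 3 and N-cre;Fox1 replicate 1 (-0.44 ± 0.16, SE, unadjusted p = 0.0343 by edgeR's quasi-likelihood test). Its share of Kif21a was 13.8 ± 1.54% in N-cre against 10.1 ± 1.54% (SD, n = 3 each), without overlap, at an exact permutation p of 0.1. Kif21a-202 and Kif21a-201 held 23.7% and 8.64% of the counts, and the sum of the gene stood at 0.01 ± 0.04. The fitted values of these isoforms were thus of opposite sign within a sum that differed by less than its error.

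Other named isoforms were minor ones. Kif1a-202 had 2227, 2058 and 2214 counts in N-cre and 2811, 2366 and 2476 in N-cre;Fox1 mice (0.24 ± 0.07, SE, unadjusted p = 0.0182 by edgeR's quasi-likelihood test), a share of Kif1a of 2.68 ± 0.049% against 3.19 ± 0.275% (SD, n = 3 each). Kif1b-201 had 494, 463 and 382 against 553, 941 and 784 counts (0.77 ± 0.21, SE, unadjusted p = 0.0100 by edgeR), a share of 1.22 ± 0.171% against 2.04 ± 0.514%. Kif3c-204, the 1 kinesin isoform held in the study's list of isoforms, which was made from these same mice and is no independent evidence of direction, had 132, 170 and 103 against 232, 231 and 207 counts (0.73 ± 0.20, SE, unadjusted p = 0.0105 and adjusted p = 0.945 by edgeR). It was 0.895 ± 0.214% and 1.48 ± 0.124% of Kif3c, and 35.3% of the exon bases of Kif3c overlap the antisense gene 1110002L01Rik. In all 3 isoforms the genotypes did not overlap, and the sums of Kif1a, Kif1b and Kif3c overlapped.

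Kif2a-202 had 70.0, 91.4 and 54.2 counts in N-cre and 105, 118 and 104 in N-cre;Fox1 mice (0.61 ± 0.23, SE), and Kif5b-205, a retained intron, had 124, 105 and 131 against 156, 229 and 164 (0.60 ± 0.20, SE). Both were without overlap, at unadjusted p of 0.0356 and 0.0216 by edgeR's quasi-likelihood test. Without the 2 mice with choroid plexus transcripts the unadjusted p by the same test was 0.0672 for Kif1b-201, 0.0554 for Kif3c-204, 0.190 for Kif2a-202, 0.0669 for Kif5b-205 and 0.0703 for the isoform of Kifc2, while for Kif21a-204, Kif21a-205 and Kif1a-202 it was 0.0210, 0.0202 and 0.0213. Kif3a-204 and Kif9-204, with fewer than 50 counts in every mouse, and the only isoform of Kifc2 complete the 10.

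The use of isoforms within their genes was also tested, on 87 isoforms of 24 kinesin genes. In this edgeR test, with Benjamini-Hochberg adjustment, 0 had an adjusted p under 0.05, where 0.217% of all 42441 isoforms did, and 3, or 3.45%, had an unadjusted p under 0.05, against 2.03% of all. These were Kif21a-205 (unadjusted p = 0.0168 by edgeR), Kif1b-201 (unadjusted p = 0.0386) and Kif1b-207 (unadjusted p = 0.0326), the last of which had 0, 0 and 22.8 counts in N-cre and 19.8, 68.9 and 22.9 in N-cre;Fox1 mice. Kif1b-207, at 0.0605% of the Kif1b counts, rests on few reads.

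**Figure D4:**
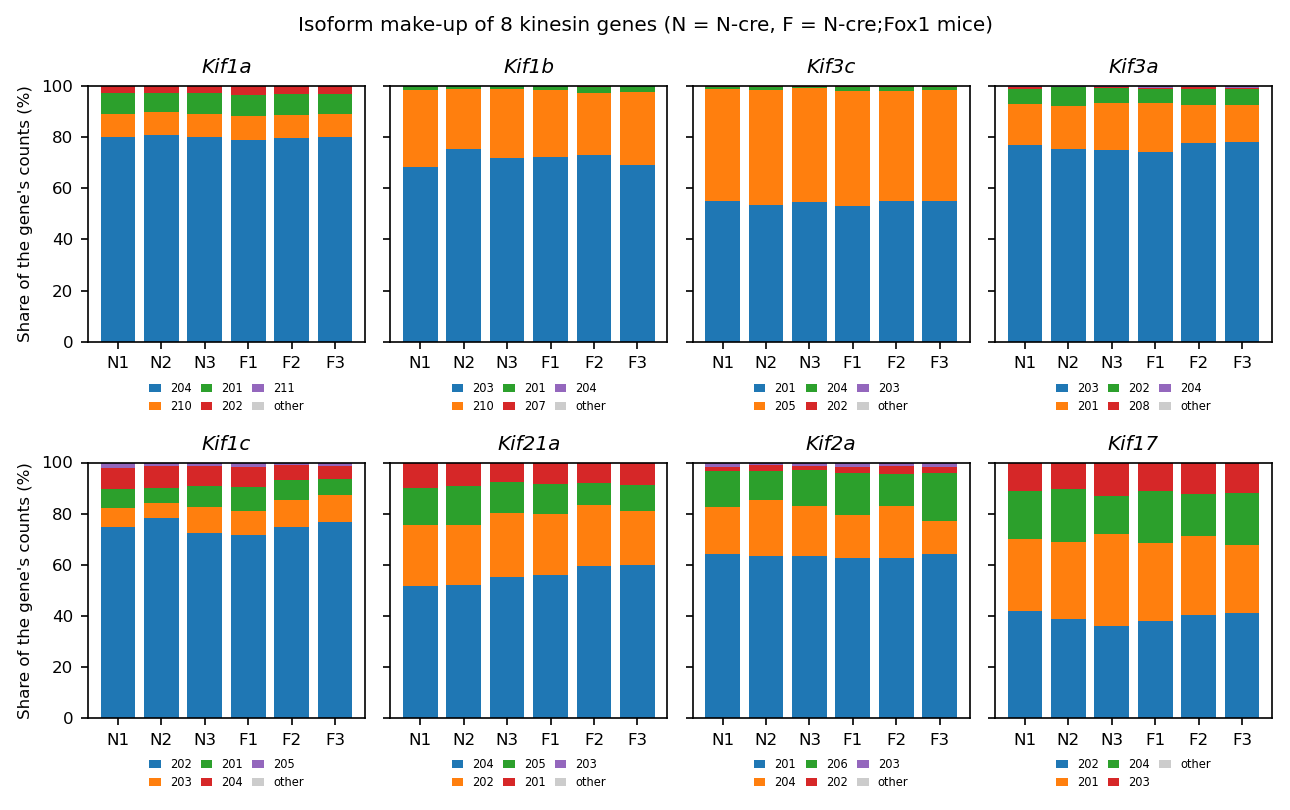
Share of each gene's expected counts taken by its isoforms in each mouse, in percent, for 8 kinesin genes; colours are the isoforms with the most counts, named by their number, and grey is the rest. In Kif21a, isoform 204 takes between 51.5% and 55.2% in N-cre and between 55.8% and 60.1% with the Rbfox1 allele, and the bars of Kif1a, at 79.0% to 80.9% for isoform 204, are nearly level.

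Cassette exons give the same data by splicing event. An internal exon was counted as a cassette where some isoforms of a gene include it and others join its neighbours directly. Its inclusion was the share of including isoforms in the per-length level of both sets. Isoforms that hold the exon beside another neighbour, or skip it by another join, were in neither set. The percentages thus compare the isoforms of both sets and are not inclusion over all isoforms of a gene. Cassettes were added after the isoform results were seen. Kinesin genes held 25 such exons in 11 genes, of 5159 in 3372 genes, with at least 50 counts in every mouse and a mean inclusion between 5% and 95%. Of the 25, 18 lie in coding sequence, and 17 of these have a length that is a multiple of 3, so that they add residues without a change of frame. The inclusion did not overlap between the genotypes in 5, or 20.0%, against 11.8% of all cassette exons. With 3 of the 5 in Kif21a and sharing isoforms, they are not 5 separate events.

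The short exons of Kif1a, Kif3a and Kif21a show what varies in these motors, and they are printed here as they lie in the spliced transcript (GENCODE M21, mm10), read from 5′ to 3′. Capitals mark the cassette exon, and lower case marks 12 bases of the neighbouring exons.
Kif1a 24 nt exon: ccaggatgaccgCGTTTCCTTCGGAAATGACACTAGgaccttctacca
Kif1a 27 nt exon (a): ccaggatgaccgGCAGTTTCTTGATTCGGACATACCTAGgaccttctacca
Kif1a 27 nt exon (b): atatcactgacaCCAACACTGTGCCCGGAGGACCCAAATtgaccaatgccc
Kif3a 9 nt exon: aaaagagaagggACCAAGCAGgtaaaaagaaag
Kif21a 15 nt exon: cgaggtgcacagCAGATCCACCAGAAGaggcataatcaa
Kif21a 21 nt exon: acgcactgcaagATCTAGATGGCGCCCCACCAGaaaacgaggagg

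In Kif1a, the 24 nt exon (chr1:93026832-93026855, minus strand) and the 27 nt exon (a) (chr1:93034546-93034572) are joined to the same neighbours and were not both included in any isoform counted for them. The 24 nt exon was included at 76.3% over the 6 mice, with a range of 75.7% to 77.1%, relative to the isoforms with neither. Exon (a) was included at 12.9%, 13.2% and 13.2% in N-cre and 16.1%, 14.3% and 14.5% in N-cre;Fox1 mice, relative to the isoforms with neither. All 3 N-cre;Fox1 mice were higher, by 1.90 percentage points in the mean (exact two-sided permutation p = 0.1, the smallest possible). This exon is found in Kif1a-202 alone, so it repeats the result of that isoform. The 27 nt exon (b) (chr1:93065552-93065578) was included at 22.7 ± 0.523% in N-cre and 23.0 ± 0.401% in N-cre;Fox1 mice (SD, n = 3 each), with overlap.

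The Kif3a exon of 9 nt (chr11:53590717-53590725, plus strand) adds 3 residues and was compared between Kif3a-203, which includes it, and Kif3a-201 alone. In this pair it was included at 77.5%, 76.4% and 74.9% in N-cre and 73.7%, 79.3% and 79.8% in N-cre;Fox1 mice. The 114 nt exon of Kif2a (chr13:106969704-106969817), near an even split, was included at 44.5 ± 0.883% and 44.2 ± 0.688%. In both exons the genotypes overlapped.

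Of the 6 Kif21a cassette exons 3 did not overlap between the genotypes. The 21 nt exon (chr15:90964975-90964995) was included at 85.7%, 85.1% and 88.0% in N-cre and 88.4%, 91.4% and 90.03% in N-cre;Fox1 mice. A 39 nt exon (chr15:90949006-90949044) was compared between Kif21a-205, which includes it, and Kif21a-204 alone. In this pair it lay between 17.6% and 21.9% against 12.4% and 17.0%, with means of 20.3 ± 2.37% and 14.5 ± 2.33% (SD, n = 3 each). The other Kif21a isoforms are not in this pair, so these values are not the inclusion of the 39 nt exon over the whole gene. The 129 nt exon before it (chr15:90951246-90951374) was compared between Kif21a-201, which includes it, and Kif21a-205 alone. In this pair it was at 38.9 ± 1.48% and 45.3 ± 3.03% (SD, n = 3 each). The main isoform Kif21a-204 skips the 129 nt exon as well and is not in this pair. These values therefore do not give the level or direction of inclusion of the 129 nt exon over the whole gene. In all 3 comparisons the side that is lower in N-cre;Fox1 mice is Kif21a-205 alone, which includes the 39 nt exon and skips the other 2. Each has an exact permutation p of 0.1. The 15 nt exon (chr15:90948324-90948338) was included at 19.0 ± 1.95% and 20.5 ± 1.07%, and the 108 nt exon at 72.9 ± 3.41% and 72.7 ± 1.74%, both with overlap. The 39 nt and 129 nt exons of these comparisons, with capitals as above, are the following.
Kif21a 39 nt exon: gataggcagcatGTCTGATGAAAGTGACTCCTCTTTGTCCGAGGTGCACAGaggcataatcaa
Kif21a 129 nt exon: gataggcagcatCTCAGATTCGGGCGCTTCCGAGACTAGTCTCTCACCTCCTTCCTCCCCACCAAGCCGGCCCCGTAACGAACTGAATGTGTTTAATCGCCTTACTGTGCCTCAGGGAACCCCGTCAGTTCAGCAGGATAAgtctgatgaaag

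The fifth exon without overlap, 120 nt in the 5′ untranslated region of Kif1c (chr11:70702432-70702551), was compared between Kif1c-204, which includes it, and Kif1c-201 alone. In this pair it was at 46.5%, 53.0% and 42.5% in N-cre and 40.4%, 35.7% and 38.4% in N-cre;Fox1 mice (exact permutation p = 0.1). The main isoform Kif1c-202 has a 180 nt form instead and is not in this pair, so these values are not shares of all Kif1c transcripts. The 120 nt exon is 1 of 3 Kif1c exons that share an end and differ at the other. Kif1c was also the gene with the highest fitted change among the kinesin-1, kinesin-2, kinesin-3 and kinesin-14 motors.

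**Figure D5:**
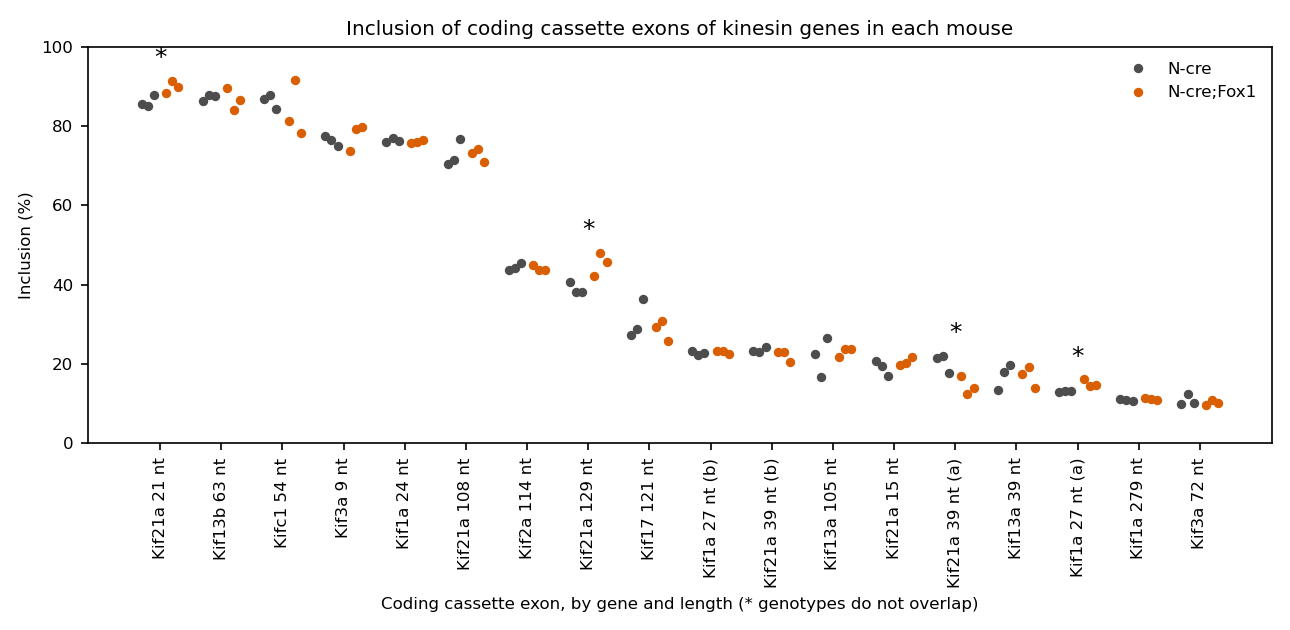
Inclusion, in percent, of 18 coding cassette exons of kinesin genes in each mouse (grey N-cre, orange N-cre;Fox1), ordered by mean inclusion and named by gene and length; asterisks mark the 4 exons in which the genotypes do not overlap. In Kif21a-201 against Kif21a-205 alone, the 129 nt exon lies between 38.0% and 40.6% in N-cre and between 42.1% and 48.1% with the Rbfox1 allele. The Kif1a 24 nt exon stays between 75.7% and 77.1%.

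The element TGCATG (in RNA UGCAUG) was searched on the transcript strand of the 3′ untranslated region of the most abundant coding isoform of each gene. It was present in 16 of 38 kinesin genes, or 42.1%, and in 34.1% of 14936 genes in all. Per kilobase it occurred 0.373 times in kinesins and 0.362 times over all genes. Kif2a and Kif3b held 3 copies each, and Kif1a, Kif3c, Kif5a and Kif26b held 2. The copies in the 2 kinesins with the highest levels are shown, each with 10 bases on either side and the element in capitals. In Kif5a-201 the element starts at bases 2387 and 2661 of the region, and in Kif1a-204 at bases 592 and 1484.
Kif5a first copy: tgagggagttTGCATGatcttgtcac
Kif5a second copy: agtgaaatgtTGCATGccggcgtgga
Kif1a first copy: agatgcacctTGCATGgtacgtgtgt
Kif1a second copy: gccaccctcaTGCATGgccaccctca

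Both genes had log2 fold changes within 1 SE of 0. Of the 4 genes whose sums did not overlap between the genotypes, Kif20a held 1 copy and Kifc2, Kifc3 and Kif7 held 0. Of the other genes with an isoform or exon described above as without overlap, Kif2a held 3 copies, Kif1a and Kif3c 2, Kif1c and Kif5b 1, and Kif1b and Kif21a 0. A count of 0 says only that these letters are not in this window.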

How the data were processed

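The deposited table held RSEM expected counts per isoform for 6 hippocampi, made by the authors with Cutadapt 1.18, STAR 2.5.2b and RSEM 1.3.0 on mm10 with GENCODE M16 (versions per the submitters' processing notes). Libraries were made with a stranded total RNA kit and read as paired ends. The strand setting of RSEM is not given in the sources used here. RSEM divides reads shared by isoforms or paralogs between them, so isoform values carry an error that replicates show only in part.

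Expected counts were rounded, summed over the isoforms of a symbol, and compared in R 4.3.3 with edgeR 4.0.16 (robust quasi-likelihood test on TMM-scaled counts, 1 term for genotype, filterByExpr with min.count of 10 and min.total.count of 15). The p-values were adjusted by Benjamini-Hochberg over the 18924 genes or 50556 isoforms tested. Isoform use was tested with diffSpliceDGE of the same package. Shares and exon inclusion were compared by an exact two-sided permutation test (SciPy 1.17.1), where 0.1 is the smallest p that 3 mice against 3 allow. Each replicate is labelled as a mouse of its own, so p-values measure the spread between mice of this cohort. Normalized counts are counts scaled to a common effective library size. TPM was computed here from these counts and GENCODE M21 lengths. Coordinates, exons and sequences are from GENCODE M21 on mm10. Isoforms were matched to it by identifier, and 7 kinesin isoforms, Kif21a-201, Kif21a-202 and Kif21a-204 among them, have another version there.

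The members and all lists were chosen with earlier results of these data known. Every kinesin gene past the filter is named with a value. Values of every mouse are given for genes with an unadjusted p under 0.05, genes without overlap between the genotypes and the 2 genes with the highest level in each role group, and for isoforms with an unadjusted p under 0.05 and a mean of at least 50 counts. Others were added after their values were seen. Alternatives were other scalings and filters, DESeq2 1.42.0, limma 3.58.1, a replicate block and leaving out each mouse. The correlations of same-numbered mice were 0.378, -0.0951 and -0.211, so the numbers were not taken as pairs. Scripts were tested on simulated counts.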

Additional observations from a re-analysis of the deposited data

How the results depend on the processing

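Among kinesin genes 0 had an adjusted p under 0.05 under each of the 15 alternatives, whereas the count over all genes moved from 5 to 45 with every gene of at least 1 count, to 50 with DESeq2 and to between 2 (without N-cre replicate 2) and 29 (without N-cre;Fox1 replicate 1) with 1 mouse left out. Kinesin genes with an unadjusted p under 0.05 numbered 2, 1 with the replicate block and 0 to 3 with 1 mouse left out, 0 without N-cre replicate 1 or 2 and 3 without N-cre;Fox1 replicate 1. The 0 calls over all isoforms became 10 with at least 1 count in total, 6 with at least 10 counts in every mouse, 215 with DESeq2 and 1 without rounding. Among kinesin isoforms DESeq2 gave 1 call, Kif21a-204. Their 10 unadjusted calls became 5 without N-cre replicate 2 and 13 without N-cre replicate 3. Isoform use gave 0 to 2 adjusted calls with 1 mouse left out, the 2 being Kif1b-207 and Kifc3-202 without N-cre replicate 3, where both remaining N-cre mice had 0 counts.

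With the replicate block the unadjusted p rose to 0.0539 in Kifc2 and to 0.0632 in Kif5b-205, kinesin isoforms with an unadjusted p under 0.05 numbered 11, and the counts of adjusted calls were 5 genes and 0 isoforms, as without it. Since 0 kinesin genes had an adjusted call, every change of sign necessarily fell in a gene without one. Without the 2 mice with choroid plexus transcripts, an alternative chosen after seeing the data, the log2 fold change was 0.018 in Kif1a, -0.021 in Kif1b, -0.0077 in Kif21a, -0.081 in Kif24, -0.0042 in Kif2a, -0.0074 in Kif5c and -0.0024 in Kif9, and upper quartile scaling gave -0.0058 in Kif26b. With 1 mouse left out it ran from -0.034 to 0.013 in Kif1a, -0.014 to 0.084 in Kif1b, -0.014 to 0.041 in Kif21a, -0.081 to 0.077 in Kif26b, -0.0056 to 0.031 in Kif2a, -0.046 to 0.0052 in Kif3a, -0.0063 to 0.050 in Kif3c and -0.14 to 0.29 in Kif9. In all, 22 of 285 values in 10 of 19 genes changed sign, and 0 of 120 values in 8 isoforms. The causes were not tested. The counts of mitotic kinesins limit what can be seen there, since even the 0.42 of Kif20a was less than 2 standard errors from 0.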
